A study of Homo sapiens with 6 samples.

Results

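The 6 RNA libraries of the glioblastoma line U87MG fell into a pair of sets of 3 that cross the medium labels. Side A held the deprived libraries 1 and 3 and the complete library 1, and side B held deprived 2, complete 2 and complete 3. The sides were chosen from the measured values, because these libraries lie closest to each other over the whole table, and each side holds 1 library whose label is in the minority there. A gene was taken as separating the sides when its lowest value on one side, in CPM (a gene's counts relative to all counts of its library, scaled by the trimmed mean of M values), exceeded its highest value on the other. Of 13068 genes tested, 2393 (18.3%) were higher in every side A library, 2307 (17.7%) were lower in every side A library, and 8368 overlapped. Together 4700 genes (36.0%) separated the sides. These counts follow from the way the sides were chosen, so they describe the 6 libraries and carry no test, and the shares are the background against which each group of genes is read.

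The study compared U87MG cells, an adherent human line established from a glioblastoma and routinely kept in DMEM with 10% fetal bovine serum, after 24 hours in medium without serine and glycine (deprived, 3 libraries) or in the same medium with both (complete, 3 libraries). Each library was made from 500 ng of total RNA by 3′ mRNA sequencing, in which a read marks the end of a transcript, with reads summed by gene. All 6 libraries come from 1 line, and nothing in the sample descriptions says whether the replicates were separate cultures. Bulk RNA cannot tell fewer cells of a kind from less RNA per cell.

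Cells short of an amino acid activate the kinase GCN2, which phosphorylates the initiation factor eIF2, slows translation and raises the transcription factor ATF4. ATF4 in turn drives genes for amino acid synthesis, uptake and tRNA charging, together with brakes on the growth kinase mTORC1. When mTORC1 is held back, lysosome and autophagy genes are known to rise through factors of the TFEB family, and growth programmes such as ribosome production and cell division are known to fall.

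The libraries held 6249706 to 7247995 counts and 16640 to 16867 genes with a count, with the smallest total in side A and the largest in side B. The 3 side A libraries stand in the first 3 columns of the deposited table, and whether column order reflects a step of preparation or sequencing was not tested. The nuclear RNA MALAT1 took 2.75% to 3.24% of counts in side A and 1.90% to 1.93% in side B. Among genes of other cell types, the summed level of leukocyte markers was 71.2 to 78.6 CPM in side A and 58.9 to 77.7 CPM in side B, with the B cell marker MS4A1 and the T cell markers CD3E and CD3D at 0 in all 6 libraries. Most of the leukocyte sum came from CD68, with 64.0 to 71.2 CPM in side A and 49.9 to 66.5 CPM in side B. Epithelial markers summed to 10.1 to 11.3 CPM in side A and 11.3 to 13.3 CPM in side B, with CDH1 and KRT5 at 0. Most of that sum was CLDN7, at 7.60 to 8.86 CPM in side A and 8.42 to 9.48 CPM in side B. Markers of neurons, oligodendrocytes and endothelium summed to 82.6 to 95.4 CPM in side A and 97.5 to 102.9 CPM in side B, and 5 markers of the line itself, VIM, CD44 and NES among them, to 7567 to 7956 CPM and 10010 to 10180 CPM. The neuronal genes SYT1, SNAP25 and GAD1 made up most of the sum for neurons, oligodendrocytes and endothelium. Of these, SNAP25 had 25.6 to 31.4 CPM in side A and 39.05 to 42.2 CPM in side B. The part of these differences in the results was not tested.

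The separation was broad but mostly shallow. Over 9573 genes with a mean of at least 10 CPM, 87 to 159 genes (0.909% to 1.66%) differed by more than 1.5-fold between 2 libraries of the same side, whether or not those libraries shared a medium. Between libraries of different sides the number was 700 to 787 (7.31% to 8.22%). The pair with the fewest differing genes, deprived 2 and complete 2, had different media, and deprived 1 and deprived 2, which share a medium, differed in 725 genes.

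**Figure D1:**
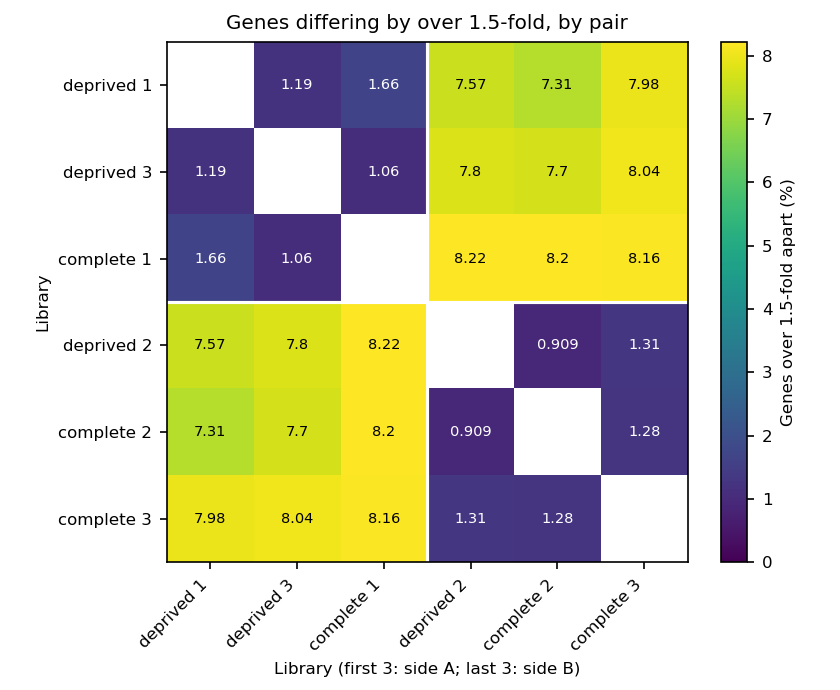
Percent of the 9573 genes with a mean of at least 10 CPM that differed by more than 1.5-fold, for each of the 15 library pairs. The pairs are cells of a grid of libraries, coloured by that percent, with white lines between side A and side B. Pairs within a side lie between 0.909% and 1.66%, and pairs across the sides between 7.31% and 8.22%, for both kinds of medium pair.

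Genes higher in side A differed by more than those lower in side A. The median difference between the side means was 0.38 on the log2 CPM scale for genes higher in side A and -0.30 for genes lower in side A, against a median near 0 over all genes tested. The gap between the nearest libraries of the opposite sides exceeded 2-fold for 104 genes that were higher in side A and for 13 that were lower. It exceeded 4-fold for 23 genes that were higher and for none that were lower. At the edge of the rule lay genes with hardly any gap. GDNF, which encodes a glial growth factor, counted as lower with 31.7, 29.1 and 39.1 CPM in deprived 1, deprived 3 and complete 1, the order kept throughout for side A, and 45.8, 41.5 and 39.1 CPM in the side B libraries deprived 2, complete 2 and complete 3, in the order kept for that side. CAPZA1, which encodes an actin capping subunit, counted as overlapping with side A values of 389, 364 and 379 CPM and side B values of 420.5, 389 and 399.8 CPM. In each of these genes 1 side A library and 1 side B library had the same value when rounded.

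**Figure D2:**
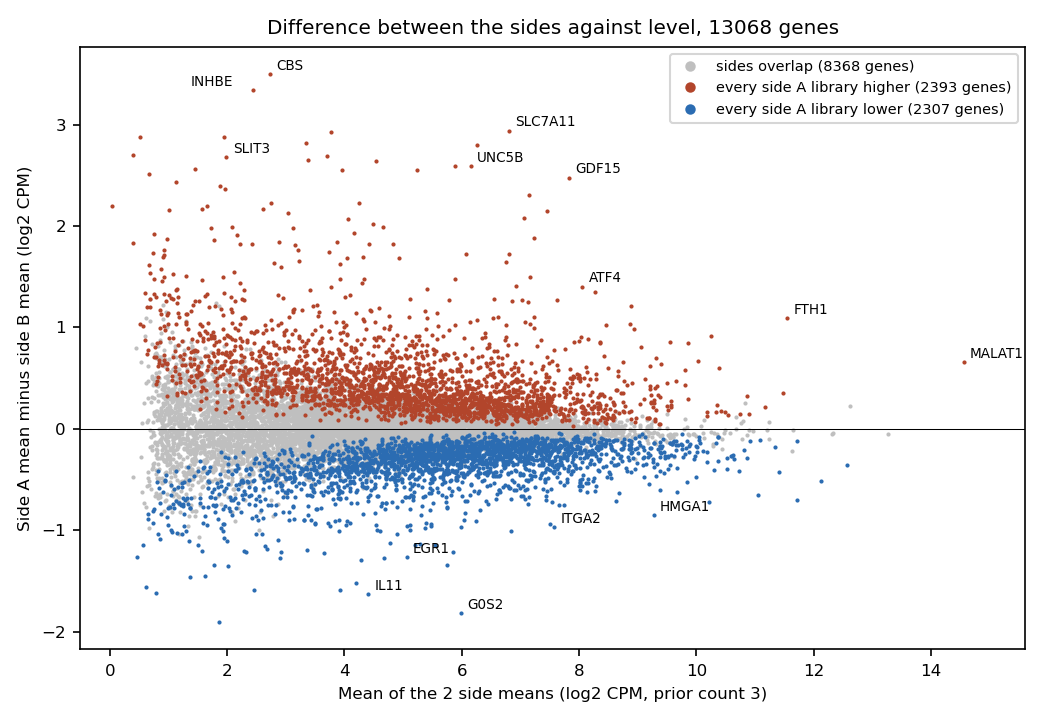
Difference between the mean log2 CPM of side A and of side B against the mean level for the 13068 genes tested, coloured by whether the sides overlap, with some of the genes described in the text named. The red points (2393 genes higher in every side A library) reach above 3 at the top, while the blue points (2307 lower) end near -2.

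Among genes with a mean of at least 10 CPM, 3 of the 4 widest gaps belonged to genes that make or import cysteine. CBS, which encodes the enzyme that joins serine to homocysteine in the first step of transsulfuration, had 19.1, 26.6 and 20.4 CPM in the side A libraries and 2.13, 1.25 and 1.34 CPM in those of side B, an 11.3-fold difference between the sides. CTH, whose enzyme releases cysteine in the next step, had 34.3, 43.5 and 34.8 CPM in side A against 5.26, 2.91 and 5.94 CPM in side B. SLC7A11, which encodes the cystine importer of the plasma membrane, had side A values of 278, 324 and 327 CPM and side B values of 38.1, 41 and 40.4 CPM. For each of these genes complete 1 had a value close to those of deprived 1 and deprived 3, deprived 2 had one close to complete 2 and complete 3, and the sides did not overlap. The folds were 7.62 for CTH and 7.68 for SLC7A11. All folds here are ratios of side means on the log2 CPM scale with a prior count of 3, which shrinks those of low genes.

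SLC7A11-AS1, an antisense transcript at the same locus, had 24.1, 26.8 and 28.7 CPM in the side A libraries and 2.70, 3.19 and 4.46 CPM in those of side B. Nothing in the sources says whether counting used strand, so its reads cannot be told apart from those of SLC7A11. CHAC1, whose enzyme breaks down glutathione, had 47.9, 62.5 and 62.8 CPM in side A against 7.82, 7.89 and 11.1 CPM in side B and was 6.23-fold higher in side A. Of 20 tested genes of transsulfuration and glutathione metabolism, 12 were higher in every side A library, none was lower and 8 overlapped, with a median difference of 0.33 on the log2 scale. GCLC, the catalytic subunit for glutathione synthesis, ranged from 26.8 to 31.2 CPM in side A and from 15.7 to 20.4 CPM in side B, and the lipid peroxidase gene GPX4 from 96.8 to 114 CPM and from 68.7 to 84.8 CPM. The other subunit gene, GCLM, overlapped between the sides.

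The best known letters bound by ATF4 dimers with C/EBP factors lie near the starts of some of these genes. The 250 bases before the start of ASNS (GRCh38.p14, chr7:97872409-97872658, minus strand) and of CHAC1 (GRCh38.p14, chr15:40953221-40953470, plus strand) are shown because both genes are among those with the widest gaps and both hold the motif TGATGNAAN. Capitals mark the matches, which begin 68 bases before the start in ASNS and 210 bases before the start, on the opposite strand, in CHAC1. Sequences are RefSeq promoters.
ASNS: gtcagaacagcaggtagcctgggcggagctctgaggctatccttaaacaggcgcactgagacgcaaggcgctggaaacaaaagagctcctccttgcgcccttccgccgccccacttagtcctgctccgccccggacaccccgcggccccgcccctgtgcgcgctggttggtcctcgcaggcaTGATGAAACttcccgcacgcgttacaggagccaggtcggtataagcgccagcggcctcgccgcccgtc
CHAC1: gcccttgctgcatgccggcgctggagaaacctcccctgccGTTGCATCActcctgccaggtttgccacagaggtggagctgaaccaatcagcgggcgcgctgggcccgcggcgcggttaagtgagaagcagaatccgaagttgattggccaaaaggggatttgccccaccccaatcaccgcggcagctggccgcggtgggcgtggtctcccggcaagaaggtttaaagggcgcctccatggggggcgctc
Searched on both strands in the 300 bases around the start, from 250 before to 50 after, TGATGNAAN was present in 1002 of 27305 promoters (3.67%), and the narrower form TGATGCAA in 252 (0.923%). TGATGNAAN was present in 4 of the 18 amino acid transporter promoters that the table holds (22.2%) out of 20 tested transporter genes, and TGATGCAA in 1 (5.56%). The letters TTTGAA, TGACNNNGC and TGANTCA, searched for other factors, were each present in 4 of these 18 too. Over all promoters they were present in 15.4%, 13.6% and 7.76%. A match describes the letters in the window and says nothing of binding. Of the genes higher in side A the table holds promoters for 78.7%, of which 54 of 1883 (2.87%) held the motif. Sets with promoters for under 80% of their genes, the regulators and this one among them, are too incomplete for the share to be read.

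The 3 serine synthesis genes PHGDH, PSAT1 and PSPH all separated, by 3.30, 4.96 and 1.45 fold. Genes for making other amino acids were split between a few that differed widely and others that overlapped. ASNS, the asparagine synthetase gene, had side A values of 152, 147 and 134 CPM and side B values of 25, 26.2 and 19.9 CPM, a 6.03-fold difference. GPT2, which makes alanine in mitochondria, was 1.96-fold higher in side A, with 72.4 to 79.7 CPM against 36.2 to 40.6 CPM, and PYCR1, the last enzyme of proline synthesis, 1.78-fold higher. Of 15 tested genes 7 were higher, 1 (GOT2) was lower and 7 overlapped, with a median difference of 0.16. The mitochondrial folate genes ALDH1L2 and MTHFD2 were 4.07-fold and 2.41-fold higher in side A, while TYMS, the thymidylate synthase gene, was lower, with 96.8 to 105 CPM against 156 to 173 CPM. Of 20 folate and glycine cleavage genes, 7 were higher and 4 were lower. PCK2, the mitochondrial enzyme that turns oxaloacetate into phosphoenolpyruvate, had 34.6, 40.8 and 37 CPM in the side A libraries and 6.40, 6.92 and 4.90 CPM in those of side B.

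Among carriers of amino acids 11 of 20 tested genes were higher in every side A library and 1 was lower, with a median difference of 0.70. SLC7A5, the large neutral amino acid exchanger, had 75.1, 107 and 94.7 CPM in side A against 13.7, 15.2 and 16.9 CPM in side B, and side A values lay 5.87-fold above those of side B. SLC3A2, its heavy chain partner, ranged from 228 to 259.7 CPM in side A and from 82 to 89.6 CPM in side B. SLC1A4 and SLC1A5, which carry serine, alanine and glutamine among others, were 3.53-fold and 2.40-fold higher, and SLC6A9, a glycine transporter gene, 3.51-fold. The exception was SLC1A1, a glutamate carrier, with 4.59 to 5.25 CPM in side A and 7.28 to 10.2 CPM in side B. SLC38A9, a lysosomal arginine sensor, and SLC7A1, the arginine importer, overlapped.

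Side A was higher for 16 of 23 regulators of the response to amino acid shortage, with 1 lower and a median difference of 0.51. TRIB3, a pseudokinase that dampens ATF4, had side A values of 25.7, 35.5 and 38.6 CPM and side B values of 4.55, 6.09 and 3.71 CPM. NUPR1, a small stress-induced chromatin protein, had 188, 217 and 201 CPM in the side A libraries and 30.1, 27.6 and 28.1 CPM in those of side B, a 6.98-fold difference. JDP2, a bZIP partner of ATF factors, was 3.24-fold higher, ATF4 2.65-fold, ATF3 2.24-fold and DDIT3, which encodes CHOP, 2.03-fold. Side A and side B did not overlap for any of these 6 genes. The eIF2 kinase genes EIF2AK1, EIF2AK2 and EIF2AK3 overlapped, and TRIB1 was the member that was lower, with 21.2 to 27.4 CPM against 28.7 to 31.9 CPM.

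The cytosolic and mitochondrial tRNA synthetases differed from each other in how many members separated. Of 20 cytosolic synthetase genes 12 were higher in side A and 2 were lower, with a median difference of 0.34, and of 17 mitochondrial ones 1 was higher, 1 was lower and 15 overlapped, with a median difference near 0. WARS, for tryptophan, had 193, 199.6 and 202 CPM in side A against 67.7, 75.5 and 80.8 CPM in side B. GARS, for glycine, was 2.41-fold higher, MARS, for methionine, 1.99-fold and SARS, for serine, 1.64-fold. The enzymes for phenylalanine and lysine went the other way, with FARSB at 66.6 to 76.7 CPM in side A and 89.3 to 103 CPM in side B and KARS at 169 to 176 CPM and 189.5 to 198 CPM. Those for valine, aspartate, arginine, glutamine and histidine overlapped.

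**Figure D3:**
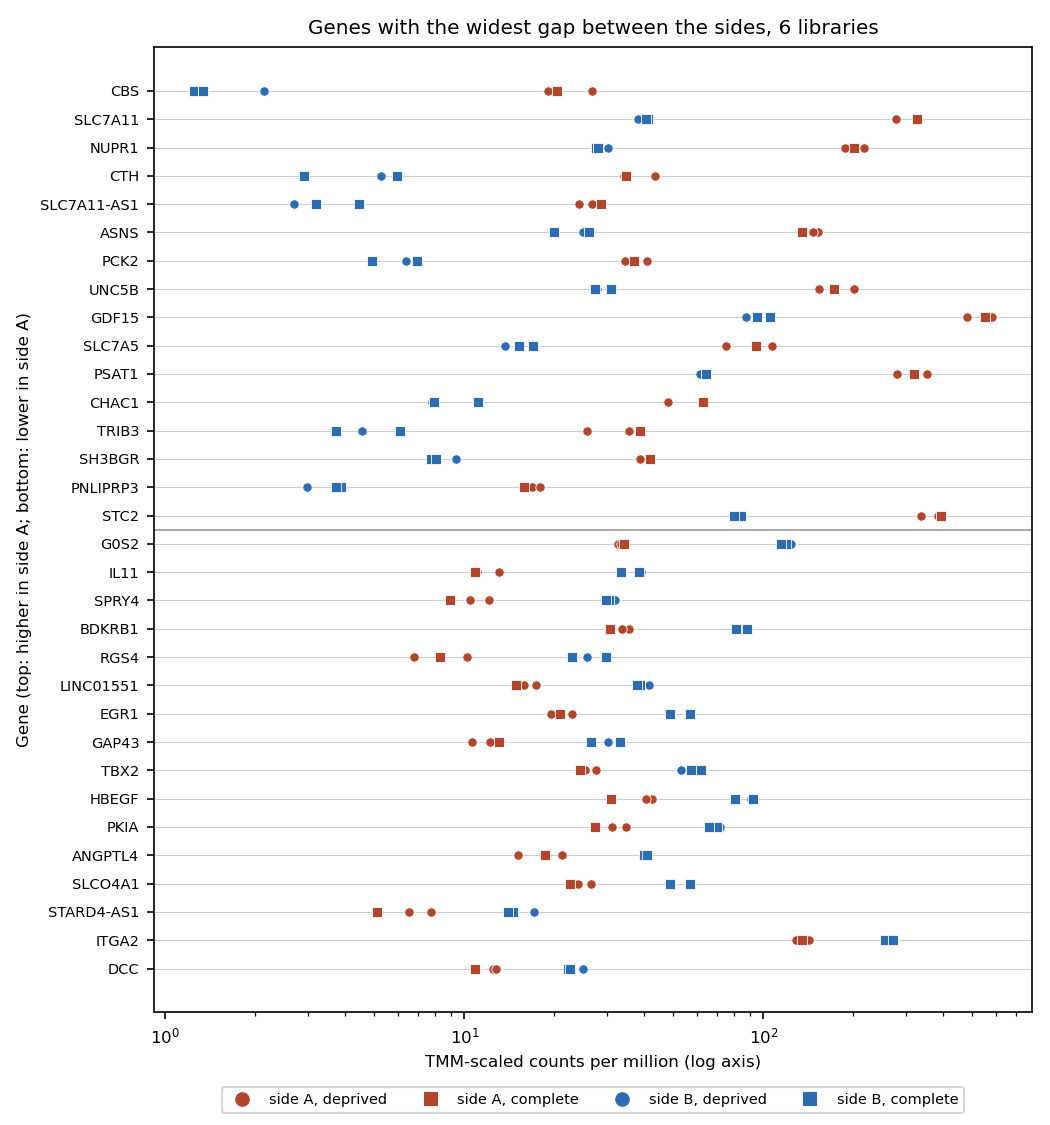
CPM values (log axis) in each of the 6 libraries for the 16 genes with the widest gap in each direction among genes with a mean of at least 10 CPM. Colour gives the side and shape the medium; in every row the square of side A lies with the circles of its own side, and the circle of side B with the squares.

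Genes that restrain, sense for or form mTORC1 were higher in side A in 10 of 21 cases and lower in none, with a median difference of 0.31. DDIT4, which encodes the mTORC1 inhibitor REDD1, had side A values of 272, 264 and 287 CPM and side B values of 67.9, 64.8 and 61.2 CPM. SESN2, the leucine sensor, had 275, 291 and 295 CPM in the side A libraries and 89.8, 69.8 and 74.4 CPM in those of side B. Their folds were 4.22 and 3.68, and deprived 2 had the highest SESN2 value of side B. RRAGD, a Rag GTPase that recruits mTORC1 to lysosomes, was 2.41-fold higher, and RRAGC 1.63-fold. EIF4EBP1, the translation repressor that mTORC1 inactivates, ranged from 48.2 to 58.7 CPM in side A and from 27 to 28.3 CPM in side B. RPTOR, MLST8, RHEB and TSC2, parts of the core kinase complex and its switch, overlapped.

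Most lysosome genes were higher in side A. Of 48 tested members 35 (72.9%) were higher, CTSC alone was lower and 12 overlapped, with a median difference of 0.36. GPNMB, a lysosomal glycoprotein, had 53, 58.7 and 47.2 CPM in side A against 14.4, 13.8 and 15.7 CPM in side B, a 3.53-fold difference. CTSD, the aspartic protease cathepsin D, had side A values of 683, 639 and 680.1 CPM and side B values of 312, 329.8 and 332 CPM. The 3 values of each side lay close together for CTSD, and the sides differed 2.05-fold. CTSK, a collagen-degrading cathepsin, was 2.10-fold higher, TPP1 1.74-fold and PSAP, the saposin precursor, 1.56-fold. ATP6V0D2, a subunit of the proton pump that acidifies lysosomes, had 28.1, 22 and 27.6 CPM in the side A libraries and 3.27, 5.82 and 2.67 CPM in those of side B. The genes of the factors themselves, TFEB, TFE3 and MITF, overlapped between the sides.

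Autophagy genes were higher in 21 of 39 cases and lower in 2, ATG3 and ATG4B, with a median difference of 0.24. MAP1LC3B, which encodes the LC3 protein of autophagosome membranes, ranged from 193 to 217 CPM in side A and from 95.2 to 107 CPM in side B. GABARAPL1, of the same protein family, was 1.98-fold higher, and ULK1, the kinase that starts autophagy, 1.68-fold. ATG5, ATG7, ATG12 and BECN1 overlapped. Responsive genes and factors of the FOXO family were higher in 10 of 16 cases and lower in none, with a median of 0.34. FBXO32, a ubiquitin ligase subunit known from muscle wasting, had 123, 121 and 119.9 CPM in side A against 39.2, 36 and 34.5 CPM in side B. KLHL24 had side A values of 26.1, 22.1 and 24.1 CPM and side B values of 7.11, 7.62 and 5.94 CPM, a 3.36-fold difference. IRS2, an insulin receptor substrate, was 1.89-fold higher, while FOXO1, FOXO3 and FOXO4 themselves overlapped.

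Regulators and targets of NRF2, the factor that drives antioxidant genes, were higher in 24 of 34 cases and lower in 1, with a median difference of 0.51. TXNRD1, thioredoxin reductase, had 465, 490.1 and 513 CPM in the side A libraries and 201, 179 and 198 CPM in those of side B. HMOX1, heme oxygenase, had 210.1, 223 and 217 CPM in side A against 81, 101 and 90.6 CPM in side B. The folds were 2.54 and 2.39, and no library of one side reached the values of the other. NQO1 was 1.87-fold higher and the autophagy receptor gene SQSTM1 1.79-fold, while the carbonyl reductase gene CBR3 was lower, at 13.5 to 15.4 CPM against 20.1 to 23.9 CPM. The ferritin genes separated too. FTH1, the heavy chain, had side A values of 4403, 4275 and 4455 CPM and side B values of 2049, 1989 and 2106 CPM. FTL, the light chain, was 1.89-fold higher, and TFRC, the transferrin receptor, was 144 to 152 CPM in side A and 162 to 175 CPM in side B. Copies of ferritin genes exist in the genome, so the authors' counting could have moved reads between them. Of 21 iron and metallothionein genes, 10 were higher and 5 lower.

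Genes known to be induced by low oxygen were higher in 15 of 23 cases and lower in none, with a median of 0.35, although no label gives a difference in oxygen. NDRG1 had 456, 426 and 444 CPM in the side A libraries and 258, 240.2 and 234 CPM in those of side B, and VLDLR, a lipoprotein receptor, was 1.94-fold higher. HIF1A, CA9 and LOX overlapped. VEGFA, the vascular growth factor, was 645 to 685 CPM in side A and 517 to 546 CPM in side B. Of 31 genes of glycolysis, lactate and the pentose phosphate pathway, 11 were higher and 6 lower. PGD, which makes NADPH, was 1.87-fold higher, PFKFB2 2.49-fold and hexokinase HK2 1.63-fold. The median difference of that list was 0.10, and its lowest member was LDHA at -0.41 on the log2 scale.

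Secreted stress hormones separated in both directions. GDF15, a hormone that lowers food intake, had 479.5, 582 and 549.8 CPM in side A against 87.3, 105 and 95.5 CPM in side B. STC2, a secreted glycoprotein, had side A values of 337, 382 and 392 CPM and side B values of 84.7, 84.3 and 79.5 CPM. The folds were 5.57 and 4.45. INHBE, an activin subunit named here after its values were seen, ranged from 14.6 to 21.3 CPM in side A and from 1.04 to 1.52 CPM in side B. In the other direction, ANGPTL4, an inhibitor of lipoprotein lipase, had 15.1, 21.3 and 18.6 CPM in the side A libraries and 39.8, 40.02 and 40.8 CPM in those of side B. STC1, the paralogue of STC2, was lower in side A as well, with 859 to 984 CPM against 1461 to 1602 CPM. Of 10 tested members of this list 6 were higher and 3 lower.

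Immune signalling was mixed. IL11, an interleukin of the IL-6 family, had 13.1, 11.1 and 10.8 CPM in side A against 39.1, 38.2 and 33.4 CPM in side B, and its level in side B was 3.09-fold that in side A. CSF3, a granulocyte growth factor, IL1B and CXCL1 were lower in side A too, with 89.8 to 101 CPM against 139.6 to 149 CPM for CSF3. CXCL2, a close paralogue of CXCL1, went the other way with side A values of 28.1, 32 and 36.4 CPM and side B values of 11.4, 16.1 and 14.7 CPM, and TSLP was 1.83-fold higher. Of 22 cytokine and chemokine genes 6 were higher and 9 lower, with a median of -0.09. Of 31 tested interferon-stimulated genes 13 were higher and 3 lower, with a median of 0.18. STAT2, which carries interferon signals to the nucleus, was 1.77-fold higher, while IFI44L was 25.8 to 34.1 CPM in side A and 39.4 to 45.3 CPM in side B. ISG15, IFIT1, IRF1 and IRF7 overlapped.

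Some of the widest gaps belonged to genes outside these groups. UNC5B, a netrin receptor, had 153, 200.2 and 172 CPM in the side A libraries and 27.7, 27.3 and 30.9 CPM in those of side B, a 6.02-fold difference, whereas DCC, another netrin receptor, was lower in side A with 12.5, 12.8 and 10.8 CPM in side A against 24.9, 22.1 and 22.6 CPM in side B. SLIT3, an axon guidance ligand named here after its values were seen, ranged from 7.17 to 12.6 CPM in side A and from 0.831 to 1.85 CPM in side B. SH3BGR, PNLIPRP3, BEX2, CADM1 and SLC22A15 were higher by 4.67, 4.37, 3.97, 3.95 and 3.39 fold. CADM1 encodes a cell adhesion molecule, for which side A held 15.8 to 17.7 CPM and side B 2.91 to 5.05 CPM.

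**Figure D4:**
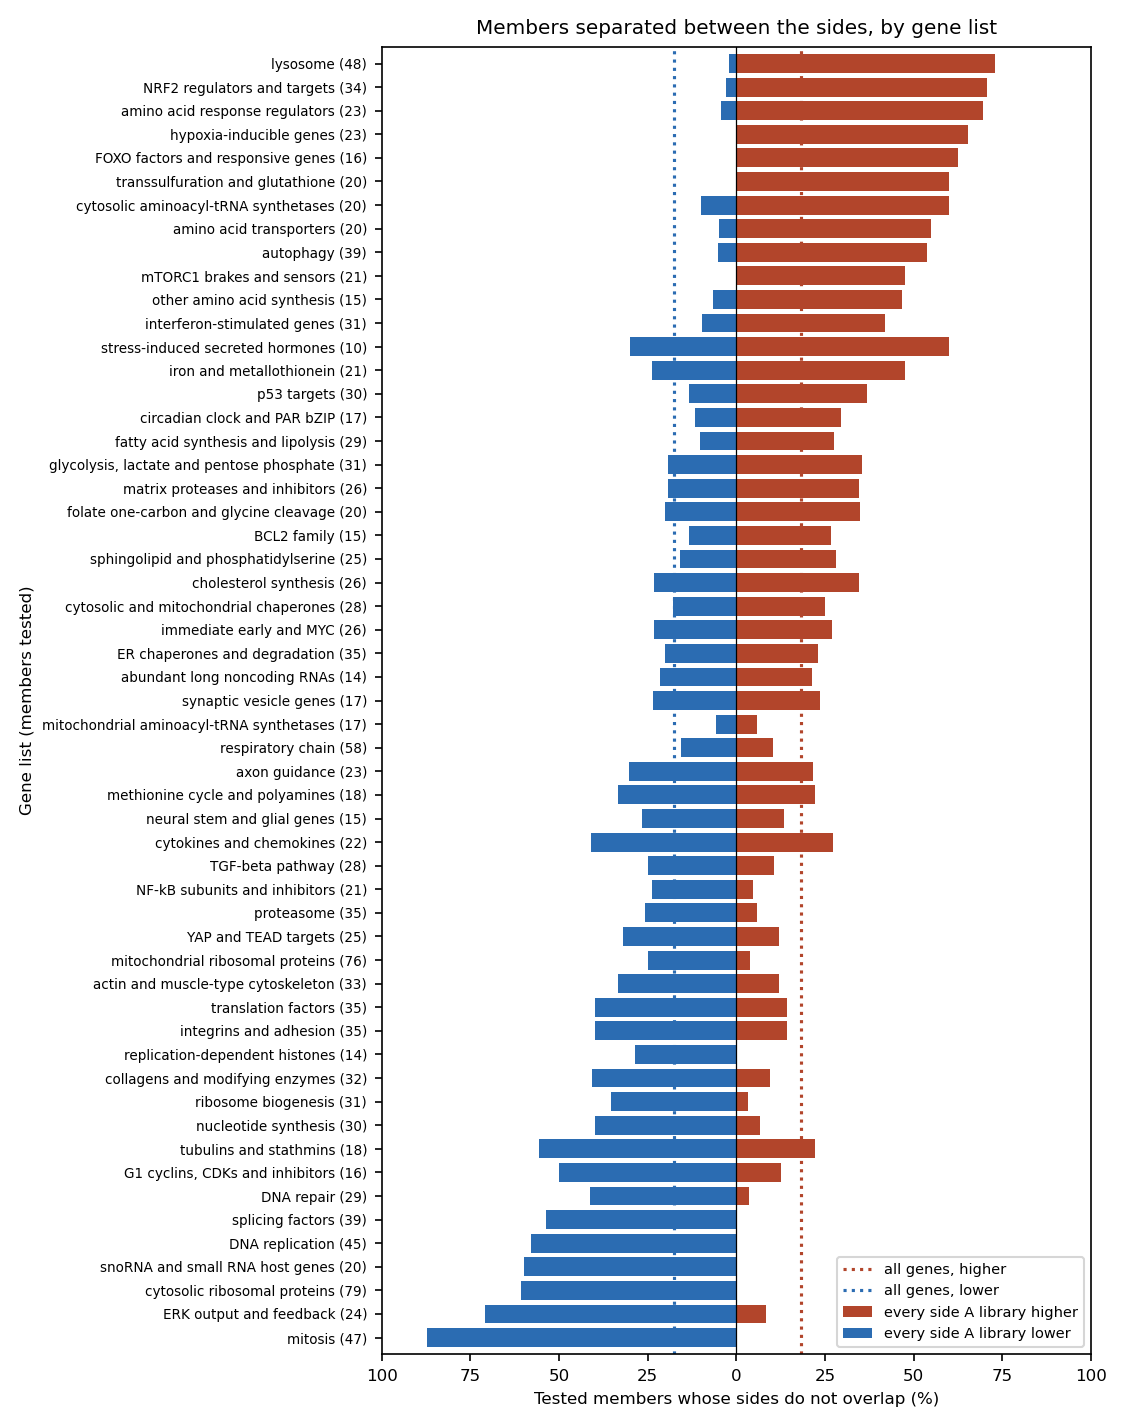
Percent of the tested members of each gene list that were higher (red) or lower (blue) in every side A library, with the background shares of all genes tested, 18.3% and 17.7%, for comparison. Among lysosome genes 35 of 48 were higher, and among mitosis genes 41 of 47 were lower.

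Among the genes lower in side A with a mean of at least 10 CPM, G0S2, IL11 and SPRY4 had the widest gaps, in that order. G0S2, an inhibitor of the lipase that starts fat breakdown, had side A values of 32.5, 33.5 and 34.3 CPM and side B values of 123, 119 and 115 CPM, and side B lay 3.53-fold above side A. SPRY4, a feedback inhibitor of ERK signalling, had 10.5, 12.1 and 8.93 CPM in the side A libraries and 31.8, 30.5 and 29.9 CPM in those of side B. HBEGF, a ligand of the epidermal growth factor receptor, had 42.3, 40.4 and 30.9 CPM in side A against 90.5, 92.4 and 80.5 CPM in side B. Side B was 2.87-fold higher for SPRY4 and 2.32-fold higher for HBEGF, with deprived 2 as high as the complete libraries. EGR1, an immediate early transcription factor, had side A values of 19.5, 23 and 20.9 CPM and side B values of 48.6, 48.9 and 57 CPM. DUSP6, the phosphatase that turns ERK off, ranged from 132 to 144 CPM in side A and from 198 to 211 CPM in side B, and HMGA1, a chromatin protein, was 1.80-fold higher in side B. Of 24 genes of ERK output and feedback 17 were lower in side A and 2, EREG and ETV5, were higher, with a median of -0.33. FOS, JUN and MYC overlapped.

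Receptors and modulators of their signals stood among the 25 lower genes with the widest gaps. BDKRB1, a bradykinin receptor, had 35.4, 33.6 and 30.6 CPM in the side A libraries and 85.7, 88.1 and 80.9 CPM in those of side B. RGS4, which shortens G protein signals, had 10.2, 6.81 and 8.29 CPM in side A against 25.7, 23 and 29.7 CPM in side B. Side B was 2.54-fold and 3.02-fold higher. HGF, the ligand of the MET receptor, was 2.06-fold higher in side B, PKIA, an inhibitor of protein kinase A, 2.22-fold and TNFRSF10D, a decoy receptor for the death ligand TRAIL, 1.87-fold. GAP43, a protein of growing axons, had side A values of 10.6, 12.2 and 13.1 CPM and side B values of 30.3, 26.6 and 33.1 CPM. The transcription factor gene TBX2 was 2.20-fold higher in side B, and LINC01551, a noncoding RNA, 2.41-fold. NREP, SLCO4A1, PODXL, GFPT2 and SEMA7A followed at 1.93, 2.21, 1.90, 1.91 and 2.01 fold. APOBEC3A_B at 1.95-fold and the antisense transcript STARD4-AS1 at 2.29-fold share sequence or position with other genes, so their counts are uncertain.

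Adhesion genes and collagens with their modifying enzymes were lower in side A more often than higher, and matrix proteases with their inhibitors were not. ITGA2, a collagen receptor subunit, had 129, 142 and 135 CPM in the side A libraries and 272, 255 and 270.2 CPM in those of side B. CD44, the hyaluronan receptor, had 542, 543 and 542 CPM in side A against 807, 862 and 798 CPM in side B. The CD44 values of side A were nearly equal, and side B was 1.52-fold higher. Of 35 integrin and adhesion genes 14 were lower and 5 were higher, and of 32 genes for collagens and the enzymes and chaperones that modify them 13 were lower and 3 were higher. COL1A1 and TNC, matrix proteins, were 1.52-fold and 1.51-fold higher in side B, and LTBP2, which binds microfibrils, 1.93-fold. Of 26 proteases and inhibitors of the matrix 9 were higher and 5 were lower, with a median of 0.08. ADAMTS5 was 2.15-fold and TIMP4 2.16-fold higher in side A. CHI3L1, a secreted glycoprotein typical of mesenchymal glioblastoma, had side A values of 164, 133 and 141 CPM and side B values of 64.2, 56.5 and 58.4 CPM, so it was higher in side A. SOX9 and NES, genes of neural stem cells, were lower. Of the 15 tested neural stem and glial genes, which include these 3, 2 were higher, 4 were lower and 9 overlapped, with a median of -0.04. The largest mean difference of that list was HEY1, at 1.37 on the log2 scale, with side A higher. Its median ran from -0.16 to 0.04 with other scalings or a library left out, so the list as a whole gave no direction. VIM and FN1, markers of the line itself, were lower in side A like CD44. Relative to library totals, VIM had 5090 to 5461 CPM in side A and 6694 to 6939 CPM in side B.

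Mitosis genes were lower almost throughout and by small amounts. Of 47 tested genes of mitosis 41 were lower in every side A library, none was higher and 6 overlapped, with a median difference of -0.36. CDC20, which activates the anaphase-promoting complex, had 74, 80.5 and 71.4 CPM in the side A libraries and 116, 121 and 128 CPM in those of side B. PLK1, a mitotic kinase, had 128, 124 and 120.5 CPM in side A against 189, 191 and 174 CPM in side B. Every side A value lay below every side B value for both, but the differences were 1.61-fold and 1.49-fold. CCNB2, a mitotic cyclin, ranged from 71.3 to 78.3 CPM in side A and from 88.2 to 95.2 CPM in side B, and PTTG1, or securin, was 1.44-fold higher in side B. FOXM1, a factor that drives mitotic genes, was 1.48-fold higher. BUB1, CENPF, TTK and MAD2L1 were among those that overlapped. Other cell cycle lists separated less fully. Of 16 genes for G1 cyclins, their kinases and inhibitors 8 were lower, 2 were higher and 6 overlapped, with a median of -0.13. Of 14 replication-dependent histone genes 4 were lower, none was higher and 10 overlapped, with a median of -0.12.

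Promoters of mitotic genes are known for a cell cycle homology region with the core letters TTTGAA, often beside CCAAT boxes. The 250 bases before the start of PLK1 (GRCh38.p14, chr16:23678639-23678888, plus strand) and CCNB2 (GRCh38.p14, chr15:59104896-59105145, plus strand) are printed because both genes were lower in side A and both hold the 2 motifs. Capitals mark CCAAT and TTTGAA. In each of them TTTGAA begins 29 bases before the start, and the matches do not overlap each other.
PLK1: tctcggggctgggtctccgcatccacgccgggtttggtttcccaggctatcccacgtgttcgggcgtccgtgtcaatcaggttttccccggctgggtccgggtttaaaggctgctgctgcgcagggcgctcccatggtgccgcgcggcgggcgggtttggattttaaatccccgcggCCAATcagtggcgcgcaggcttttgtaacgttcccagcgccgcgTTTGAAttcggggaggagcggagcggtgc
CCNB2: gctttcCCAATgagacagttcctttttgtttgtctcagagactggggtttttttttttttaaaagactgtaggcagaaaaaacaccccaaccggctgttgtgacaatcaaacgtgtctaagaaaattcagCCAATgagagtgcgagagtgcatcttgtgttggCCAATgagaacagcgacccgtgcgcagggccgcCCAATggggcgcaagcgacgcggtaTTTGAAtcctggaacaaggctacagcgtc
TTTGAA on either strand was present in 27 of the 40 mitosis promoters in the table (67.5%; 47 genes tested) and in 4212 of 27305 promoters overall (15.4%). None of the 38 DNA replication promoters held it. Among all genes lower in side A, 255 of the 1872 promoters in the table held TTTGAA (13.6%). Among those higher it was 136 of 1883 (7.22%), from a set with promoters for only 78.7% of its genes. The 27305 promoters include genes that were not tested here, and no share over the tested genes alone was taken for any motif. Whether the genes lower in side A hold more or fewer matches than other expressed genes was therefore not tested.

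DNA replication genes were lower in 26 of 45 cases and higher in none, with a median of -0.29. E2F2 had side A values of 8.17, 8.79 and 8.77 CPM and side B values of 13.1, 12.9 and 14.3 CPM. UHRF1, which helps copy DNA methylation, had 30.8, 24.9 and 27.7 CPM in the side A libraries and 42.2, 41.4 and 42.8 CPM in those of side B. The differences were 1.53-fold and 1.51-fold. MCM5 and MCM7, subunits of the replicative helicase, were each 1.36-fold higher in side B. GINS2, also of that helicase, was 20.4 to 24.2 CPM in side A and 24.9 to 30.3 CPM in side B. The letters TTTCCCGC, known as a binding site of E2F factors, occurred on either strand in 10 of the 38 replication promoters in the table (26.3%) and in 453 of 27305 promoters (1.66%). Among all genes lower in side A, 60 of 1872 promoters held these letters (3.21%). The 250 bases before the GINS2 start (GRCh38.p14, chr16:85688955-85689204, minus strand) are given as an example, with the match in capitals 31 bases before the start on the opposite strand.
GINS2: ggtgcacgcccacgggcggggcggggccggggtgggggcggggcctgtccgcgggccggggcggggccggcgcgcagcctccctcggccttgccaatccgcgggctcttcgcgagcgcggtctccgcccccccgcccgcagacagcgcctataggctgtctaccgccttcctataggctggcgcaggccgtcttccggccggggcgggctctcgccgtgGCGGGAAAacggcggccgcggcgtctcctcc
Nucleotide synthesis genes were lower in 12 of 30 cases and higher in 2. RRM2, the ribonucleotide reductase subunit that peaks in S phase, and IMPDH2, which makes guanine nucleotides, were 1.62-fold and 1.64-fold higher in side B. DNA repair genes were lower in 12 of 29 cases and higher in 1. ODC1, the first enzyme of polyamine synthesis, had 89.5, 84.8 and 95 CPM in side A against 139.9, 158 and 139 CPM in side B.

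By list median, growth machinery was lower by less than mitosis and DNA replication genes, which had medians of -0.36 and -0.29. Single members such as SNHG12, 1.59-fold higher in side B, differed as much as many cell division genes. Of 79 tested cytosolic ribosomal protein genes 48 were lower and none was higher, with a median of -0.13. RPL18 had side A values of 399, 375 and 375 CPM and side B values of 451, 469 and 460.1 CPM. These genes have many near-identical pseudogenes, so single members are uncertain. Of 76 mitochondrial ribosomal protein genes 19 were lower and 3 higher. Host genes of small nucleolar RNAs were lower in 12 of 20 cases and higher in none, with SNHG12 at 22.2 to 28.5 CPM in side A and 39.3 to 44.8 CPM in side B and NOP56, a protein of the nucleolar RNA complexes, 1.47-fold higher in side B. Splicing factors were lower in 21 of 39 cases and higher in none, with SRSF7 1.36-fold higher in side B. Of 35 translation factor genes 14 were lower, 5 were higher and 16 overlapped, with a median of -0.10. The lowest of them by difference was EIF4E, which binds the mRNA cap. It had 50.04, 51.8 and 52.6 CPM in the side A libraries and 68.9, 72.4 and 72.3 CPM in those of side B. The respiratory chain, with 6 of 58 genes higher and 9 lower, and cholesterol synthesis, with 9 of 26 higher and 6 lower, had medians within 0.01 of 0 on the log2 scale. SCD, which desaturates fatty acids, was 1.63-fold higher in side A.

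**Figure D5:**
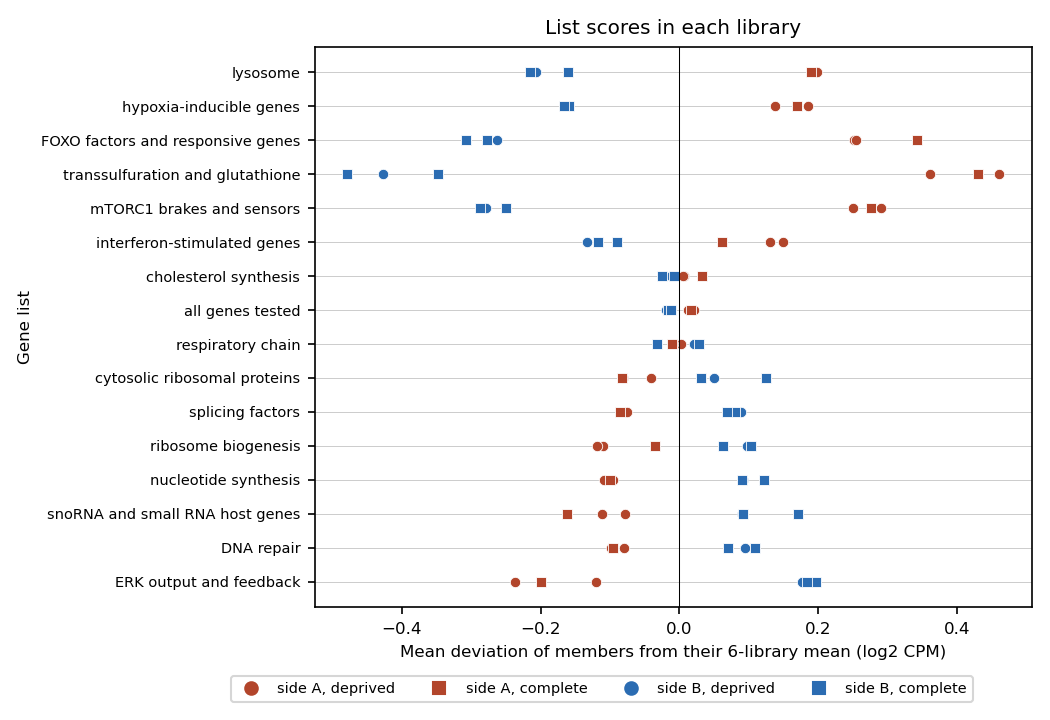
Mean deviation of the members of each list from their 6-library mean (log2 CPM), per library, with colour for side and shape for medium. Lysosome genes lie between 0.19 and 0.20 in the side A libraries and between -0.22 and -0.16 in side B, and the scores of all genes tested lie within 0.03 of 0.

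Across the 55 lists with 10 or more tested members, besides 3 lists of cell type markers, 10 had more than 1 in 2 members higher in side A and 7 more than 1 in 2 lower. Lists share members, and they were drawn up with earlier results of these data known, so the counts describe the split and do not rank the lists. Of the genes higher in side A, 91.9% were protein coding, against 93.9% of those lower and 90.3% of all genes tested. Their median mean level was 33.6 CPM, against 54.5 CPM for those lower and 27.1 CPM for all.

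Within a side the libraries kept no common order. Over the 9573 genes, 313 (3.27%) spanned more than 1.5-fold within side A and 265 (2.77%) within side B. Among the members, each library was the highest of its side for 30.8% to 37.9% of genes.

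The medium labels gave a different picture. In 911 genes (6.97%) the 3 deprived libraries did not overlap the 3 complete ones. edgeR's quasi-likelihood test of deprived against complete, with Benjamini-Hochberg adjustment over 13068 genes, called none (0%), with 247 genes at an unadjusted p under 0.05. DESeq2 and limma-voom called none either, with 140 and 251 genes at an unadjusted p under 0.05. The biological coefficient of variation in that fit was 14.1%. CBS had a log2 fold change of 1.09 (SE 0.99, adjusted p = 0.999 by edgeR), and G0S2 one of -0.51 (SE 0.56, adjusted p = 0.999 by edgeR). These label contrasts share 4 of the 6 library positions with the sides, so their direction is tied to the split.

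With side as a term in the model the contrast uses only differences between media within a side. The coefficient of variation was then 6.07%, a spread that is low partly by construction, since the sides were chosen on the same counts. edgeR called 3 genes (0.0230%), each lower in deprived libraries, and 609 genes had an unadjusted p under 0.05. They were SNAR-A8 (log2 fold change -0.52, SE 0.08, adjusted p = 0.00143), SNAR-A13 (-0.63, SE 0.11, adjusted p = 0.00479) and RNU4ATAC (-0.35, SE 0.07, adjusted p = 0.0228). SNAR-A8 had 169, 209 and 280.1 CPM in side A against 152, 166 and 255 CPM in side B, and the sides overlapped. SNAR genes are near-identical noncoding RNAs and RNU4ATAC is a small RNA of the minor spliceosome that has no long poly(A) tail, so their counts are uncertain. None of the 3 separated the sides. Without deprived 2, complete 1 or complete 3 no gene was called, without deprived 1 there were 5, without deprived 3 there were 17 and without complete 2 there were 23.

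For the genes with the widest gaps, differences between the sides ran from 1.72 to 3.50 on the log2 scale where side A was higher and from -1.82 to -0.90 where it was lower. For the 25 higher in side A the within-side log2 fold change ran from -0.28 (TRIB3) to 0.26 (CBS), positive in 13 and negative in 12, and none had an unadjusted p under 0.05. For the 25 lower genes it ran from -0.12 (TNFRSF10D) to 0.34 (STARD4-AS1), positive in 16, and 1 gene, HBEGF, had an unadjusted p under 0.05. The lowest adjusted p over these 50 genes was 0.99 by edgeR. Over all 13068 genes tested, 609 had an unadjusted p under 0.05 in the same edgeR fit. The 50 were picked for wide gaps, which favours genes whose libraries lie close together within a side. Small within-side changes are therefore partly fixed by that choice, and their counts decide nothing about the medium. For SLC7A11 the within-side change was -0.11 (SE 0.07), for ASNS 0.14 (SE 0.09), for G0S2 0.03 (SE 0.09) and for ITGA2 0.03 (SE 0.06). A p above the threshold does not show that the media acted alike, and with 1 library of the minority medium per side the within-side contrast rests on few libraries. An exchange of the labels of complete 1 and deprived 2 would make the sides equal to the media, and the deposited counts alone cannot tell it apart from any other difference between these sets of libraries. Every value by medium given here takes the labels as deposited.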

How the data were processed

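The authors' deposited table gives counts per gene for the 6 libraries, 3 deprived and 3 complete, as whole numbers on 25737 rows; no row lacks a gene name. Per the labels' protocols the libraries were made with a 3′ mRNA kit from 500 ng of total RNA, and per the submitters' processing notes Bowtie2 was used. For the genome build, annotation, strand setting and counting tool, the sources used here give nothing. In 286 symbols, holding 0.921% of counts, a name stands on more than 1 row.

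Counts were filtered with edgeR 4.0.16 (filterByExpr, minimum count 10), which kept 13068 genes, and scaled by trimmed mean of M values. Log2 CPM used a prior count of 3. The sides were compared by description alone: no overlap, gap and difference of means. The medium was tested with edgeR's quasi-likelihood test, without and with side as a term, at an adjusted p of 0.05. Replicates of one group came from samples that the labels list separately, so p-values measure only the spread between those samples, possibly a technical one. Every pair of libraries differed by more than sampling noise. Simulated data with known changes were used to test the scripts.

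The members, gene lists and tests were chosen with earlier results of these data known. Named genes were the 25 with the widest gap in each direction among those with a mean of at least 10 CPM, up to 3 of each list with the largest gap, the genes at the edge of the rule, those called with side as a term, PHGDH and ATF4; other genes are listed members or were chosen after their values were seen. Promoters came from RefSeq (GRCh38.p14, first listed start per symbol); 10239 of the tested genes (78.4%) had one. R 4.3.3, limma 3.58.1, DESeq2 1.42.0, Python 3.11.15, pandas 2.3.3 and Matplotlib 3.10.9 were used. Counting error alone puts a count of 0 at up to 3 counts, 0.414 to 0.48 CPM by library. Alternatives were other scalings, filters and tools, rows summed by symbol, each library left out, and the replicate number as a block.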

Additional observations from a re-analysis of the deposited data

How the results depend on the processing

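The number of genes called between deprived and complete medium was 0 in every setting tried, with DESeq2 (140 of 19472 genes at an unadjusted p under 0.05) and limma-voom (251) as with edgeR. With the replicate number as a block it was also 0 (429 at an unadjusted p under 0.05); the labels do not say that numbers mark pairs, and deviations of same-numbered libraries correlated at 0.384, 0.381 and -0.281. With side as a term the 3 calls became 19 with no filter beyond 1 count, 5 with at least 5 CPM in 3 libraries and 0 with DESeq2 (192 at an unadjusted p under 0.05). Leaving out each library in turn gave 0 to 23 calls: 0 without deprived 2, complete 1 or complete 3, 5 without deprived 1, 17 without deprived 3 and 23 without complete 2. The cause was not tested.

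Between the sides, the counts of genes stayed within 1.5 times those reported in each of 12 settings. No named gene that separated the sides changed sign with another scaling, a prior count of 1 or a library left out. Differences of named genes were not taken under the other filters or with rows summed by symbol. With another scaling or prior count, none of 784 comparisons of named genes moved beyond the spread within the sides. A further 1176 comparisons left out 1 library. By construction this can hardly shift a difference beyond that spread, so those comparisons decide nothing here. SNAR-A13 and RNU4ATAC, called with side as a term and overlapping between the sides, did change sign, with differences from -0.11 to 0.41 and from -0.05 to 0.25. Of 59 list medians, 10 changed sign in at least 1 setting of those compared. With a library left out, 104 comparisons of list medians moved beyond the spread of the list's score within the sides, and 250 did not. With another scaling or prior count, 1 comparison moved and 235 did not. The other scalings put the median of all genes between -0.0013 and 0.0002 on the log2 scale. Depth of 6249706 to 7247995 counts limits genes of a few CPM, such as INHBE and SLIT3, to coarse ratios.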
